A study of Mus musculus with 4 samples.

Results

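The 10 transcription factors Tox, Tox2, Eomes, Tbx21, Tcf7, Lef1, Bach2, Id2, Id3 and Prdm1, chosen by name for their part in lymphocyte fate, were followed through T cells, natural killer (NK) cells and type 1 innate lymphoid cells (ILC1) of the mouse liver. They are 10 of the 32285 genes in the deposited matrices. TCF-1 (encoded by Tcf7), LEF1 and BACH2 are known to hold T cells in naive and memory-like states, TOX and TOX2 to establish the exhausted state of T cells under persistent antigen, and BLIMP-1 (Prdm1) to drive terminal differentiation. The T-box factors EOMES and T-bet (Tbx21) direct cytotoxic and type 1 programmes and part NK cells from ILC1, while ID2 and ID3 act without binding DNA themselves, by holding E proteins off it. Liver tumours and steatohepatitis are known to hold many PD-1+ CD8 T cells, the class in which most of these factors are usually studied.

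CD45+ cells sorted from livers of female C57BL/6 mice were read by 10x Genomics 5′ single-cell RNA sequencing, in 4 libraries of 1 condition each. The young WT library came from untreated mice about 8 weeks old. The other 3 came from mice 36 weeks old by the labels (35 weeks in the paper) given diethylnitrosamine (DEN, 25 mg/kg) at day 14 of age and, after weaning at day 21, a choline-deficient diet with 60% fat (CDHFD): WT, miR-146a-/-, and miR-146a-/- Ccl5-/- double knockout (DKO) mice. Both deletions are carried by all cells of the mouse, age and treatment change together between the WT libraries, and the number of mice pooled per library is not stated. The libraries held 90756272, 103165826, 88706063 and 103147246 UMIs, in the order young WT, DEN-CDHFD WT, miR-146a-/- and DKO, which is kept throughout. Filtering left 10283, 8329, 7824 and 9850 cells, 36286 of 39121, with a median of 6782, 8210, 7910 and 7558 UMIs. Between 96 and 127 kept cell barcodes were shared by each pair of libraries.

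The deleted genes were checked first. Ccl5 stood at 20672, 41995.5 and 37256 CPM (UMIs of a gene scaled to the same total for every class and library) in PD-1+ CD8 cells of the first 3 libraries and at 237 CPM in DKO, and over all kept cells at 6174, 12544, 12496 and 65.4 CPM. The DKO library was thus the low one for Ccl5 in both views. The matrices have no row for the microRNA gene Mir146. The mature mouse miR-146a-5p is shown because its loss defines both knockout groups (RefSeq, build GRCm38.p6, chr11:43374435-43374456, minus strand), with its seed, bases 2 to 8, in capitals.
mmu-miR-146a-5p: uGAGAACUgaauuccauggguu
The 7 letters that pair with this seed, AGTTCTC, were found in the 3′ UTR of 0 of the 10 members, against 2309 of 20816 genes (11.1%). The known targets Traf6 and Irak1 held 4 and 2 matches. Among genes with 3′ UTRs of like length to that of Bach2, which at 5812 bases is the longest of the 10, 39.9% held a match, so its count of 0 was read from the longest window. No match says only that these letters are not in these 3′ UTRs.

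Cells were placed in 9 classes by marker UMIs, with no member used in a gate. T cells needed 2 UMIs of Cd3d, Cd3e or Cd3g, and cells with more than 2 UMIs of 6 myeloid genes or more than 1 of 4 B-cell genes were left out. This limit set aside 40.4%, 43.3%, 36.7% and 40.8% of kept T cells, and the classes hold 36.8%, 35.1%, 39.0% and 30.5% of kept cells. PD-1+ CD8 cells, with at least 1 UMI of Pdcd1, numbered 307, 1220, 1317 and 1161. PD-1- non-naive CD8 cells numbered 790, 590, 702 and 641, conventional CD4 cells 446, 177, 367 and 239, NK cells 684, 363, 271 and 385, and ILC1 308, 318, 201 and 337. Naive-like CD8 cells were few after treatment, at 151, 53, 13 and 14 cells. Foxp3+ Treg cells were few in all libraries, at 25, 16, 52 and 58, and gamma-delta T cells stood at 129, 62, 24 and 57. Zbtb16+ T cells, which carry the factor PLZF, numbered 947, 126, 105 and 110.

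The classes bore their own markers. The 10-gene T-cell list summed to between 976 CPM in ILC1 of the DEN-CDHFD WT library and 7751 CPM in PD-1+ CD8 cells of the miR-146a-/- library, with Cd3e its most abundant gene there at 2037 CPM. In NK cells the T-cell list still stood at 977, 1007, 1061 and 1078 CPM, with Cd3d, Cd3e and Trac at 0 by the gate. The 2-gene CD8 list reached 2426 CPM in PD-1+ CD8 cells, led by Cd8b1 at 1416 CPM, and the CD4 list 599.6 CPM in conventional CD4 cells, led by Cd4 at 340.2 CPM. The 4 naive markers ran from 88.7 CPM in PD-1+ CD8 cells to 2511 CPM in naive-like CD8 cells (Ccr7 at 1088 CPM), and the 5 PD-1+ CD8 markers from 39.6 CPM in naive-like to 4071 CPM in PD-1+ CD8 cells (Gzmk at 1315 CPM). Treg, gamma-delta and NK lists peaked in their own classes, at 3013 CPM (Ctla4 at 1314), 727 CPM (Trdc at 306) and 18767 CPM (Gzma at 11776). Against their names, the Zbtb16+ T list was highest in NK cells, at 1211 CPM, through Klrb1c at 1170.4 CPM, and the ILC1 list in Zbtb16+ T cells, at 1567 CPM, through Cxcr6 at 818 CPM.

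Markers of other lineages were low but not all at 0 in these classes. Over the 36 sums of a class and a library, the B-cell list reached at most 155 CPM (Ighm), macrophage genes 99.95 CPM (C1qb), conventional dendritic cell genes 17.5 CPM (Clec9a), plasmacytoid dendritic cell genes 199.9 CPM (Bst2), plasma cell genes 114 CPM (Xbp1), hepatocyte genes 114 CPM (Alb), endothelial genes 138 CPM (Pecam1) and neutrophil genes 170.4 CPM (S100a8). The classical monocyte list reached 1847 CPM in naive-like CD8 cells, nearly all of it Ly6c2 at 1817 CPM, a gene that CD8 T cells are also known to express. Haemoglobin genes reached 1759 CPM in conventional CD4 cells of the miR-146a-/- library, led by Hbb-bs at 1299.7 CPM. The part of these transcripts in the members' levels was not tested.

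**Figure D1:**
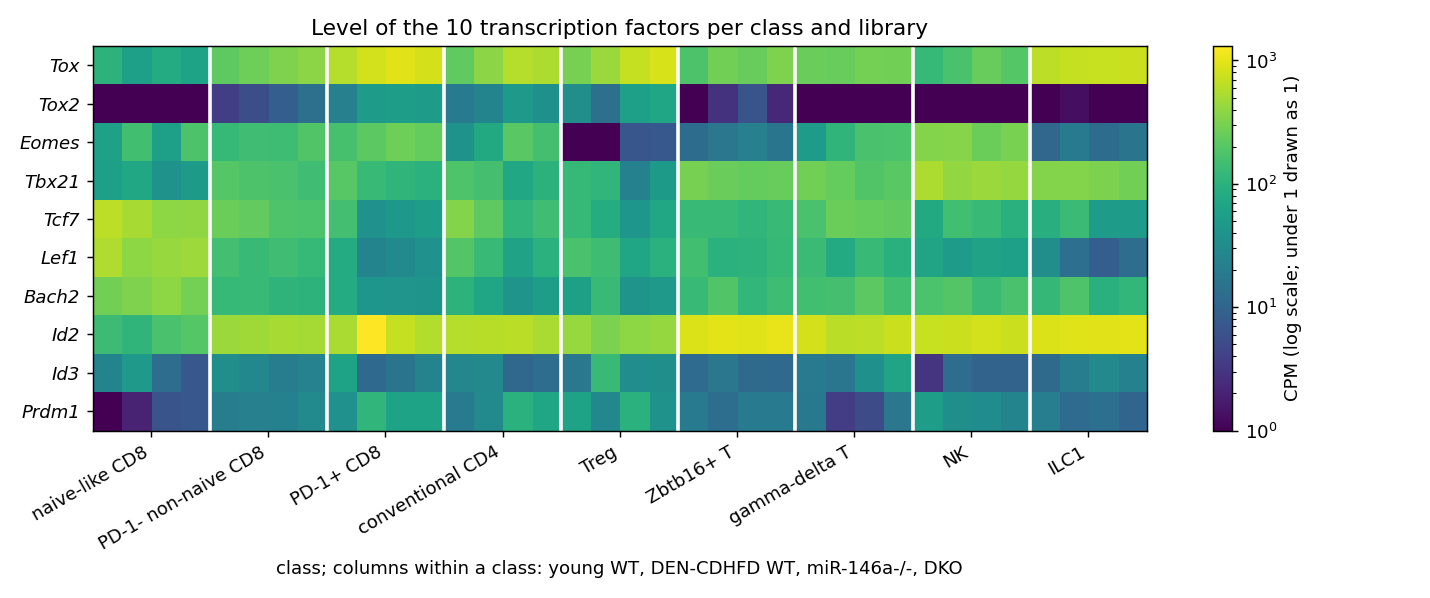
Level of each of the 10 members (rows) in each of the 9 lymphoid classes and 4 libraries (columns), as CPM of summed UMIs on a log colour scale. Tcf7, Lef1 and Bach2 are brightest, that is highest, in naive-like CD8 cells, Tox in PD-1+ CD8 cells and ILC1, and Eomes and Tbx21 in NK cells.

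Tcf7, Lef1 and Bach2, the factors of the naive and memory-like states, shared their highest class. Tcf7 had a median over the 4 libraries of 452 CPM in naive-like CD8 cells (387 to 649), above 235 CPM in gamma-delta T cells, the next class, with no overlap between the libraries of both. Lef1, the close relative of Tcf7, stood at a median of 443 CPM in naive-like CD8 cells (384 to 555), above 139 CPM in PD-1- non-naive CD8 cells. Bach2, a repressor that restrains effector genes, had a median of 309 CPM in naive-like CD8 cells (283 to 387), above 170 CPM in NK cells. For each of the 3 genes, every naive-like library stood above all libraries of the next class. By median, PD-1+ CD8 cells were the lowest of the 9 classes for Tcf7 (49.99 CPM) and Bach2 (42.9 CPM). They were next to lowest for Lef1 (33.9 CPM), which was lowest in ILC1 (13.4 CPM). The next class, ILC1 for Tcf7 and Treg for Bach2, overlapped them and stood above them in 2 of 4 libraries. In young WT, PD-1+ CD8 cells stood above NK cells for Tcf7 (153 and 77.4 CPM) and Lef1 (82.8 and 65.7 CPM). Between gamma-delta T and PD-1+ CD8 cells, Tcf7 medians ran over PD-1- non-naive CD8, conventional CD4, Zbtb16+ T, NK, Treg and ILC1, with each neighbouring pair overlapping. Lef1 passed from PD-1- non-naive CD8 through Treg, Zbtb16+, gamma-delta and conventional CD4 to NK cells, and Bach2 from NK through gamma-delta, Zbtb16+, ILC1, PD-1- non-naive CD8 and conventional CD4 to Treg cells, again with all neighbours overlapping.

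Tox and Tox2, the HMG-box factors of the exhausted state, differed in how widely they were found. Tox had a median of 817 CPM in PD-1+ CD8 cells (597 to 957) and 714 CPM in ILC1 (643 to 735), followed by Treg (573), conventional CD4 (459), PD-1- non-naive CD8 (299), gamma-delta (270.2), Zbtb16+ (263) and NK cells (182), and by naive-like CD8 cells at 73.8 CPM. All neighbours in this order overlapped apart from the last pair, NK and naive-like CD8 cells. Tox2 was found in fewer classes. Its medians were 52.8 CPM in PD-1+ CD8, 46.2 in Treg, 30.9 in conventional CD4, 7.07 in PD-1- non-naive CD8 and 2.60 in Zbtb16+ T cells. NK cells held 3 UMIs of Tox2 over all libraries, as did ILC1, and naive-like CD8 and gamma-delta T cells held 0. A count of 0 over naive-like CD8 cells allows up to 1.32 CPM (3 counts over the class), and the steps from conventional CD4 to PD-1- non-naive CD8 and from Zbtb16+ T to NK cells were without overlap. Tox2 thus had little or no signal in the very ILC1 in which Tox was second highest.

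Among the T-box factors, Eomes and Tbx21 were both highest in NK cells and parted in the other innate and unconventional classes. Eomes medians were 328 CPM in NK (264 to 353), 227 in PD-1+ CD8, 144 in PD-1- non-naive CD8, 137 in gamma-delta, 118 in conventional CD4 and 106 in naive-like CD8 cells, then 16.8 in Zbtb16+ T cells, 14.2 in ILC1 and 3.38 in Treg cells. The libraries of neighbours overlapped except between naive-like CD8 and Zbtb16+ T cells and between ILC1 and Treg cells. Tbx21 stood at a median of 432 CPM in NK cells (414 to 541), clear of 329 CPM in ILC1. It went on through Zbtb16+ (249), gamma-delta (225), PD-1- non-naive CD8 (170.1), conventional CD4 (129), PD-1+ CD8 (117) and Treg cells (82.4) to naive-like CD8 cells (53.3), with neighbours overlapping. ILC1 and Zbtb16+ T cells were therefore high for Tbx21 and low for Eomes. Over the 36 class and library sums, which share libraries, the Pearson correlation of their log2 levels was 0.11.

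Id2, Id3 and Prdm1 completed the set. Id2, which favours effector and innate lymphocytes by restraining E proteins, had medians of 954 CPM in Zbtb16+ T cells, 936 in ILC1, 737 in NK, 686 in gamma-delta, 631 in PD-1+ CD8, 598 in conventional CD4, 487 in PD-1- non-naive CD8 and 404 in Treg cells, and 153 CPM in naive-like CD8 cells. ILC1 did not overlap NK cells, and the last 4 classes in that order did not overlap one another. Id3, its relative in naive and memory-like cells, stayed between medians of 9.76 CPM in NK and 35.0 CPM in Treg cells, and every neighbouring pair of classes overlapped. Prdm1 was highest in PD-1+ CD8 cells (63.9 CPM), Treg (52.0), conventional CD4 (51.1) and NK cells (34.0), then PD-1- non-naive CD8 (23.0), Zbtb16+ T (18.5), ILC1 (13.2), gamma-delta (11.1) and naive-like CD8 cells (4.22), and the only neighbours without overlap were PD-1- non-naive CD8 and Zbtb16+ T cells. Of these sums, 5 held fewer than 50 cells: naive-like CD8 of miR-146a-/- and DKO, Treg of both WT libraries, and gamma-delta of miR-146a-/-.

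The share of cells with a UMI was read beside a class that should lack the gene, after thinning each cell to 2000 UMIs. Tox was seen in 62.5%, 74.8%, 78.4% and 73.9% of PD-1+ CD8 cells (90.2%, 96.2%, 95.4% and 94.8% without thinning), against 2.96%, 4.25%, 1.88% and 1.85% of B cells (7.22%, 12.7%, 6.57% and 6.71% without). The median depth before thinning was 6406, 6860.5, 6603 and 5779 UMIs in PD-1+ CD8 cells and 5599, 6759.5, 6971.5 and 6563.5 in B cells, and 301, 1208, 1306 and 1155 PD-1+ CD8 cells and 1116, 635, 426 and 649 B cells were deep enough to be used. Tox in PD-1+ CD8 cells was thus far above the B-cell share in all libraries. Eomes was found in 1.87%, 1.68%, 2.05% and 3.12% of thinned ILC1 (2.92%, 6.60%, 4.98% and 5.64% unthinned), a little above the B-cell shares of 0.448%, 0.315%, 0.469% and 0.308%, and in 44.1%, 46.2%, 34.5% and 42.7% of NK cells (75.0%, 82.4%, 72.7% and 80.0% unthinned). ILC1 had median depths of 5683.5, 7367.5, 7204 and 6620 UMIs and NK cells of 6159, 7638, 8641 and 7772. Tcf7 was seen in 21.6%, 4.30%, 6.13% and 7.27% of PD-1+ CD8 cells (44.6%, 12.4%, 15.3% and 15.6% unthinned) and 1.43%, 0.315%, 1.17% and 0.616% of B cells, so the treated libraries kept a small share above background. Bach2 is known in B cells, where 69.0%, 61.3%, 70.0% and 69.0% had a UMI, and classical monocytes served in their place with 7.69%, 9.38%, 3.68% and 7.35% at median depths of 11682, 13051, 18148 and 18522 UMIs. Bach2 in PD-1+ CD8 cells, at 13.6%, 7.53%, 7.96% and 7.27%, was near to that level in all libraries but young WT and miR-146a-/-. For Id3, neither B cells (11.8%, 14.8%, 14.3% and 11.6%) nor monocytes (30.8%, 46.9%, 22.1% and 21.7%) lacked the gene, and the 7.31%, 1.90%, 3.06% and 4.24% of PD-1+ CD8 cells with a UMI were below both.

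Which members set PD-1+ CD8 cells apart from naive-like CD8 cells was asked over the 4 libraries as replicates, by edgeR's quasi-likelihood test on UMIs summed per class and library, with library as a block and Benjamini-Hochberg adjustment over 11096 genes. Relative to naive-like cells, 6 members rose and 3 fell, 9 of 10, where 30.3% of all genes were called. The members' median log2 fold change was 0.93 (0.93 also with Tox2 at its bound), and that of all genes 0.07. Tox stood at 597, 808, 957 and 826 CPM in PD-1+ CD8 cells and at 103, 57.5, 83.8 and 63.7 CPM in naive-like cells. All libraries were high in the first class and low in the second, with no overlap (log2 fold change 2.83, adjusted p = 2.2e-12, higher in 4 of 4 libraries). Leaving out the young WT library gave 3.46.

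Tox2, at 23.0, 53.6, 56.7 and 52.1 CPM in PD-1+ CD8 cells, had no UMI in naive-like cells of any library under these gates. Summed over libraries of unequal depth, it was at least 39.2-fold higher, with the floor of 3 counts taken over the class (adjusted p = 2.0e-07, 4 of 4 libraries). Gates on thinned cells gave a log2 fold change of 4.53, which lies under that bound. Lef1 fell from 555, 384, 432 and 453 CPM in naive-like cells to 82.8, 25.7, 30.5 and 37.3 CPM (log2 fold change -3.68, adjusted p = 4.2e-15, higher in 0 of 4). Tcf7 fell from 649, 507, 387 and 396 CPM to 153, 37.6, 45.5 and 54.4 CPM (-3.08, adjusted p = 6.1e-10, higher in 0 of 4). Both Wnt-pathway factors, TCF-1 and LEF1, were thus lower in PD-1+ cells of every library, without overlap. Bach2 fell likewise, from 283, 327, 387 and 290.2 CPM to 82.8, 43.7, 42.1 and 40.8 CPM (-2.82, adjusted p = 1.0e-12, higher in 0 of 4).

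Id2 rose between the same classes from 138, 111, 168 and 198 CPM to 531, 1312, 689 and 573 CPM (2.21, adjusted p = 2.4e-10, higher in 4 of 4). Prdm1 was seen as 1 UMI in naive-like cells of each library, 0.680 to 7.08 CPM, and at 37.7, 114, 63.9 and 63.9 CPM in PD-1+ cells (4.97, adjusted p = 4.3e-05, 4 of 4). No library overlapped for either gene. The Prdm1 fold change was 4.18 without the young WT library and 3.01 with gates on thinned cells, 5.62 in cells free of myeloid and B-cell marker UMIs, and 5.72 without sums of fewer than 50 cells, a choice made after seeing the data. Tbx21, between 38.7 and 71.3 CPM in naive-like and between 99.1 and 206 CPM in PD-1+ cells, rose by 1.08 (adjusted p = 0.000207, 4 of 4). Eomes was called at 0.78 (adjusted p = 0.0465, 4 of 4), but its libraries overlapped. Its call was lost on leaving out any library (0.57, 1.06, 0.60 and 0.88 without young WT, DEN-CDHFD WT, miR-146a-/- and DKO, adjusted p 0.164, 0.0515, 0.119 and 0.0789) and in DESeq2 (0.73, adjusted p = 0.109). Id3 was not called (-0.32, adjusted p = 0.713, higher in 3 of 4 libraries). Over all members, 8 were called whichever library was left out.

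**Figure D2:**
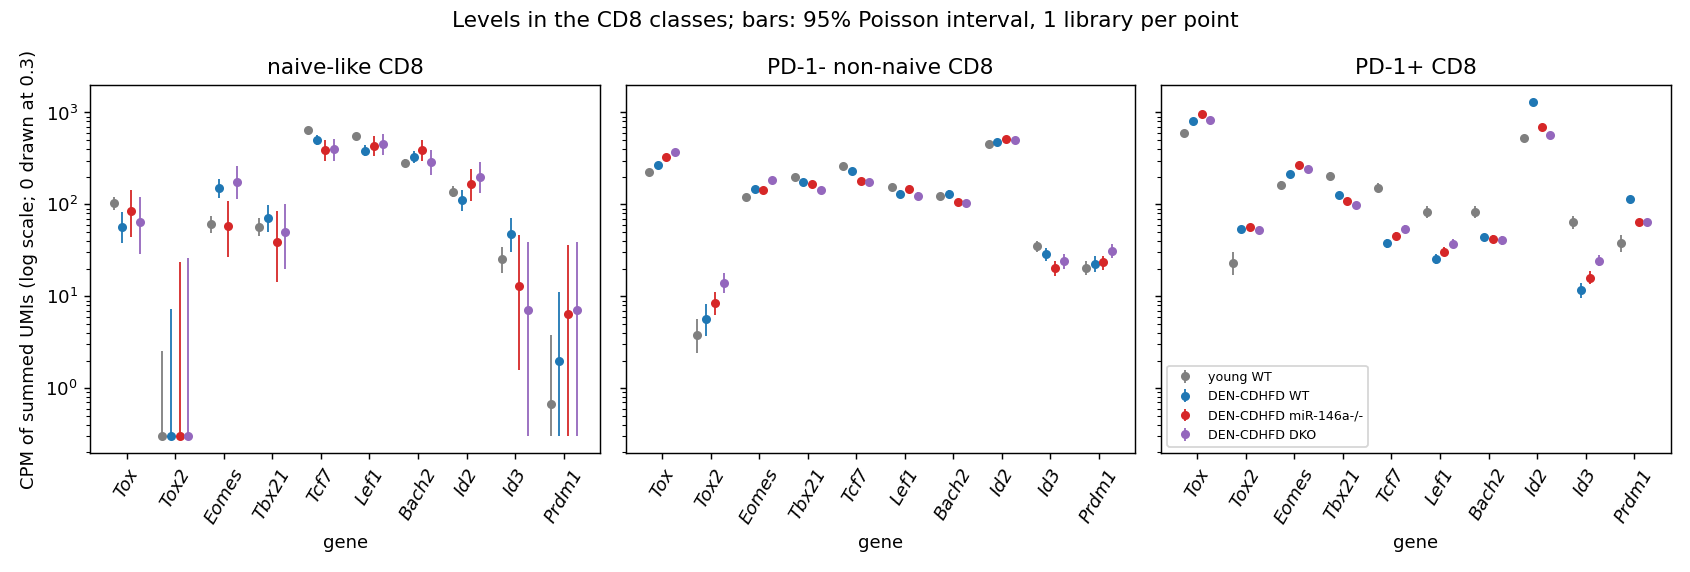
Level (CPM of summed UMIs, log axis) of each member in naive-like, PD-1- non-naive and PD-1+ CD8 cells, 1 point per library with its exact 95% Poisson interval. Tcf7, Lef1 and Bach2 step down from naive-like to PD-1+ cells in every library and Tox steps up.

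Within non-naive CD8 cells, PD-1+ and PD-1- cells were compared in the same fit. In PD-1+ cells 4 members rose and 4 fell, 8 of 10, beside 20.2% of all genes, with a median log2 fold change of 0.19 against a value near 0 for all genes. Tox rose from 223, 266, 331 and 373 CPM in PD-1- cells (1.40, adjusted p = 1.2e-07, 4 of 4 libraries). Tox2 rose from 3.80, 5.65, 8.49 and 14.1 CPM (2.54, adjusted p = 4.2e-09, 4 of 4), or by 1.40 with gates on thinned cells. Neither gene's libraries overlapped between the classes. Prdm1 rose from 20.3, 22.6, 23.3 and 31.4 CPM (1.52, adjusted p = 0.000304, 4 of 4). Lef1 fell from 154, 131, 147 and 124 CPM (-1.85, adjusted p = 7.3e-09), Tcf7 from 262, 231, 179 and 174 CPM (-1.71, adjusted p = 1.9e-05) and Bach2 from 123, 131, 105 and 103 CPM (-1.24, adjusted p = 3.5e-06), each higher in 0 of 4 libraries and without overlap. Each of these 6 log2 fold changes was nearer to 0 than the one against naive-like cells, with that of Tox2 there known only as a bound.

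Calls for the remaining members rested on less. Id2, at 449, 476, 512 and 499 CPM in PD-1- cells, rose by 0.64 (adjusted p = 0.0039, 4 of 4), but gave 0.26 with adjusted p = 0.144 without the DEN-CDHFD WT library, the one in which its PD-1+ level was highest. With gates on thinned cells Id2 gave 0.46 with adjusted p = 0.0644. Tbx21 fell by 0.42 (adjusted p = 0.0330, higher in 1 of 4 libraries, overlapping), and this call was lost without DEN-CDHFD WT (-0.40, adjusted p = 0.147), miR-146a-/- (-0.34, 0.0924) or DKO (-0.37, 0.213). It was also lost with no library block (-0.39, 0.276), with gates on thinned cells (-0.21, 0.361) and in cells free of myeloid and B-cell marker UMIs (-0.42, 0.0714). Eomes stood higher in PD-1+ cells of 4 of 4 libraries without passing (0.53, adjusted p = 0.0958), and passed without young WT (0.58, adjusted p = 0.0298) and with no filter beyond 1 UMI (0.54, 9.0e-06). Id3 did not pass (-0.14, adjusted p = 0.833, higher in 2 of 4). With a library left out, 6 to 9 members were called, and between 1104 and 2239 of all genes (2245 with all libraries).

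Levels of some members also graded with the number of Pdcd1 UMIs in non-naive CD8 cells, each thinned to 2000 UMIs and sorted into cells with 0, 1, 2 and 3 or more. Tox in the DEN-CDHFD WT library stood at 438, 844, 887 and 944 CPM over these bins, in miR-146a-/- at 516, 1002.9, 1129 and 1259, and in DKO at 498, 858, 879 and 1161. Tcf7 ran the other way, at 158, 37.9, 16.3 and 9.85 CPM in DEN-CDHFD WT, 129.8, 47.0, 19.2 and 9.46 in miR-146a-/- and 128, 61.1, 31.3 and 23.5 in DKO. Lef1 stood at 89.9, 26.0, 18.2 and 13.3 CPM, at 105, 22.3, 17.2 and 7.74, and at 92.7, 35.4, 22.1 and 21.2 in these libraries. In each treated library, then, the level of Tox was higher and those of Tcf7 and Lef1 lower in each further bin. Counting intervals were apart for these genes from 0 to 1 UMI in each treated library. At every later step the intervals of Lef1 overlapped, as did those of Tcf7 from 2 to 3 or more UMIs. Those of Tox overlapped from 1 to 2 UMIs in DEN-CDHFD WT and DKO, and from 2 to 3 or more in DEN-CDHFD WT. Tox2 was at 23.1, 53.6, 60.2 and 62.6 CPM in DEN-CDHFD WT, 23.5, 61.0, 67.6 and 75.7 in miR-146a-/- and 25.5, 54.6, 57.1 and 77.2 in DKO. Prdm1 stood at 50.5, 108, 132 and 162 CPM in DEN-CDHFD WT, while DKO gave 39.8, 74.5, 56.1 and 81.6 CPM, with a dip at 2 UMIs. Bach2, Eomes, Tbx21, Id2 and Id3 did not grade in every treated library. In DEN-CDHFD WT Bach2 stood at 96.0, 38.9, 43.2 and 41.1 CPM, Eomes at 172, 219.9, 224 and 207 CPM and Tbx21 at 154, 135, 103 and 122 CPM, and in DKO Id2 stood at 508, 600.1, 672 and 570.4 CPM and Id3 at 24.0, 19.9, 29.5 and 34.7 CPM. The young WT library had 12 cells in each of the last 2 bins. There Tox stood at 270.1, 602, 744 and 1127 CPM and Tcf7 at 244, 151, 101 and 132 CPM, while Lef1 stood at 138, 71.4, 151 and 278 CPM, higher again in the 2 thinly filled bins. Without these bins only the step from 0 to 1 UMI remained.

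**Figure D3:**
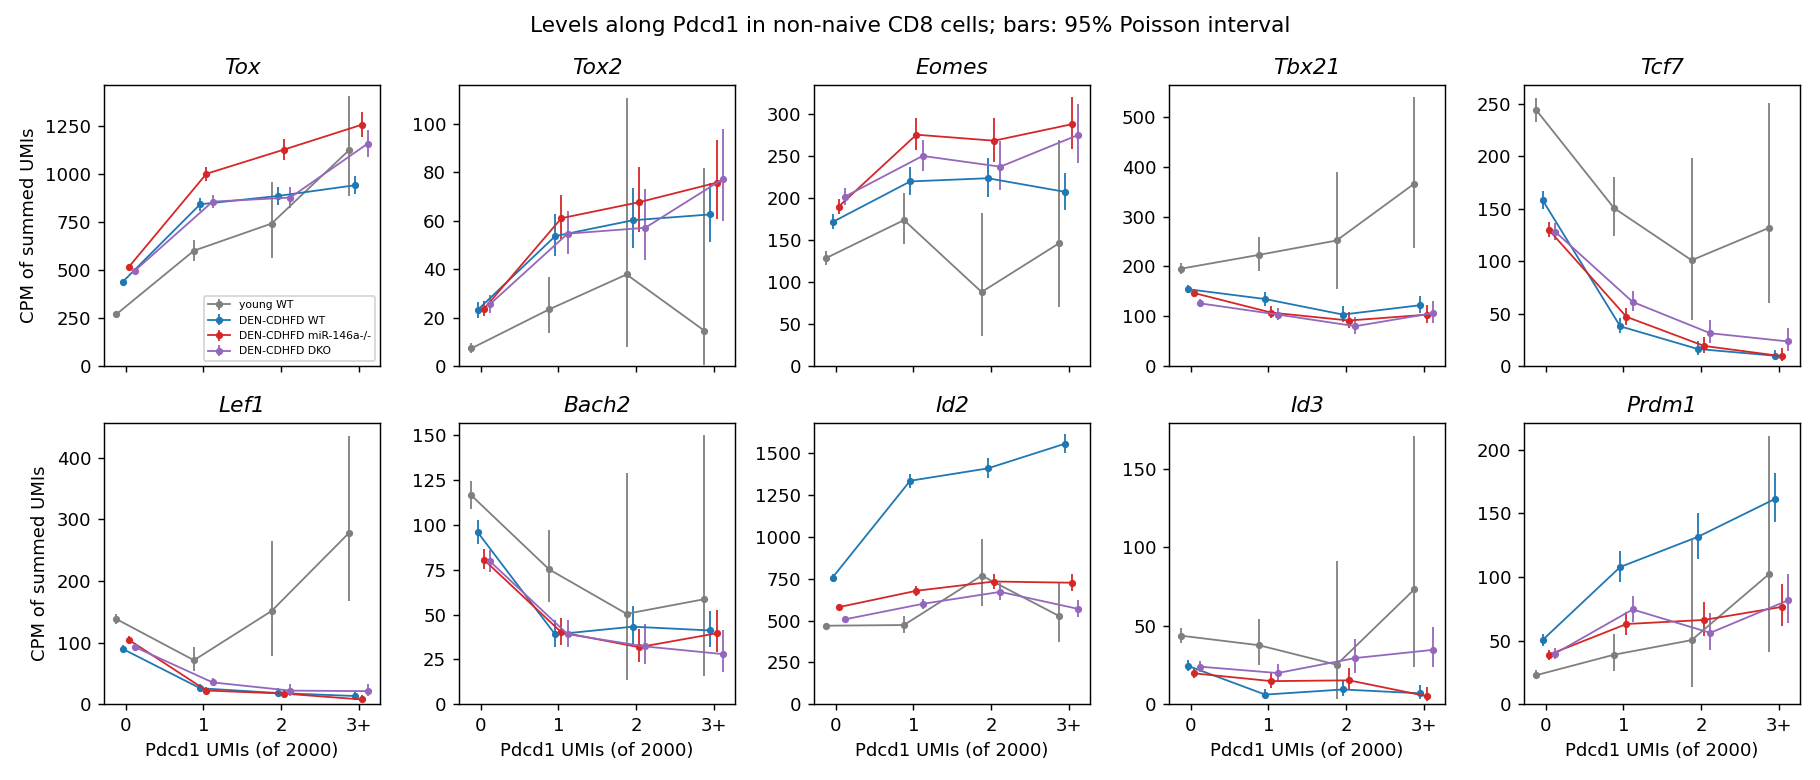
Level of members (CPM of summed UMIs, with exact 95% Poisson intervals) in non-naive CD8 cells with 0, 1, 2 and 3 or more Pdcd1 UMIs after thinning to 2000 UMIs, 1 line per library. Tox climbs and Tcf7 and Lef1 decline along the axis in the 3 DEN-CDHFD libraries, with overlapping intervals at each Lef1 step past 1 UMI. The last 2 young WT points rest on 12 cells each.

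Tox and Tcf7 were also set against each other cell by cell. Among thinned PD-1+ CD8 cells, a Tcf7 UMI was found in 18.6% of cells with Tox and 26.5% without in young WT, in 3.21% and 7.54% in DEN-CDHFD WT, in 4.49% and 12.1% in miR-146a-/-, and in 5.98% and 10.9% in DKO. The share was lower in Tox+ cells of all 4 libraries, with exact 95% binomial intervals apart in DEN-CDHFD WT and miR-146a-/-. PD-1- non-naive CD8 cells gave 31.3% and 39.5%, 19.4% and 34.1%, 16.0% and 30.2%, and 15.4% and 27.5%, apart in the 3 treated libraries. In NK cells the order was the opposite, with Tcf7 in 20% of Tox+ and 8.62% of Tox- cells of young WT, 24.4% and 20.1% in DEN-CDHFD WT, 32.1% and 14.5% in miR-146a-/-, and 21.0% and 12.6% in DKO, apart in young WT and miR-146a-/-. All these shares exceed the B-cell background for Tcf7 given above.

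Other pairs were counted in the same way. Eomes was found in 42.5% of Tox+ and 33.3% of Tox- PD-1+ CD8 cells of miR-146a-/- and in 40.2% and 31.1% of those of DKO, with intervals apart. In young WT (21.8% and 23.9%) and DEN-CDHFD WT (33.9% and 28.2%) they overlapped. The shares in PD-1- non-naive CD8 cells were 19.5% and 17.6%, 29.3% and 19.0%, 31.9% and 17.9%, and 35.1% and 23.6%, apart in miR-146a-/- and DKO. Prdm1 was found in 3.85% of Tcf7+ and 17.4% of Tcf7- PD-1+ cells of DEN-CDHFD WT, with intervals apart, and was lower in Tcf7+ cells of the other 3 libraries as well, with overlap. In PD-1- non-naive CD8 cells it was apart in miR-146a-/- alone (0.602% and 5.97%). The Tcf7+ shares with intervals apart rest on 2 of 52 and 1 of 166 cells, and no background share is given for Prdm1. For Tbx21 by Eomes and Id3 by Id2, intervals overlapped in PD-1+ CD8, PD-1- non-naive CD8 and NK cells of every library.

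NK cells and ILC1, sorted here by receptors and adhesion genes, parted in 7 of 10 members, 5 higher in NK cells and 2 lower, beside 31.3% of all genes called. The members' median log2 fold change was 0.52 and that of all genes near 0. Eomes, which marks conventional NK cells, stood at 344, 353, 264 and 312 CPM in NK cells and 10.8, 18.5, 12.6 and 15.8 CPM in ILC1 (log2 fold change 4.61, adjusted p = 1.4e-13, higher in 4 of 4 libraries). Tox, required for development of both lineages, stood at 121, 168, 246 and 196 CPM in NK cells and 643, 704, 724 and 735 CPM in ILC1 (-1.89, adjusted p = 5.8e-11, higher in 0 of 4). The libraries did not overlap for either gene, and each was the low one where the other was high. Lef1, at 65.7, 51.5, 62.7 and 57.6 CPM in NK cells and 34.9, 13.8, 8.63 and 13.1 CPM in ILC1, was higher in NK cells (1.91, adjusted p = 1.4e-07, 4 of 4). Prdm1, at 54.4, 35.2, 32.7 and 25.8 CPM against 21.7, 12.5, 13.9 and 10.4 CPM, was higher as well (1.52, adjusted p = 0.0034, 4 of 4).

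Tbx21, at 541, 414, 443 and 420.3 CPM in NK cells and 348, 342, 317 and 288 CPM in ILC1, rose by 0.58 (adjusted p = 0.0018, 4 of 4). With no library block it gave 0.57 with adjusted p = 0.0521. Its libraries did not overlap, and its step was the smaller of the T-box pair. Bach2 was called at 0.47 (adjusted p = 0.0387, 4 of 4) and Id3 at -1.27 (adjusted p = 0.0436, 0 of 4). Both calls were lost without miR-146a-/- (0.45 with adjusted p = 0.0894, and -1.15 with 0.162) or without DKO (0.41 with 0.225, and -1.31 with 0.131). They were also lost, at folds of about the same size, in DESeq2 (0.44 with 0.0849, and -1.28 with 0.0655) and with no library block (0.44 with 0.138, and -1.25 with 0.0517). That of Bach2 was also lost with DESeq2 size factors (0.44 with 0.0637) and in cells free of marker UMIs (0.27 with 0.315), and that of Id3 without sums of fewer than 50 cells (-1.26 with 0.0596). Id3 moved to -0.54 (adjusted p = 0.264) with gates on thinned cells and to -2.08 in cells free of myeloid and B-cell marker UMIs. Tcf7 was higher in 3 of 4 libraries and did not pass (0.60, adjusted p = 0.113), but passed without young WT (0.73, adjusted p = 0.0101), with gates on thinned cells (0.87, 0.0229) and with no filter beyond 1 UMI (0.59, 8.5e-06). Id2 was lower in NK cells of 4 of 4 libraries and did not pass (-0.22, adjusted p = 0.322), and Tox2 was near 0 in both classes. Leaving out libraries gave 5 to 8 members called, and dropping the block gave 4.

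**Figure D4:**
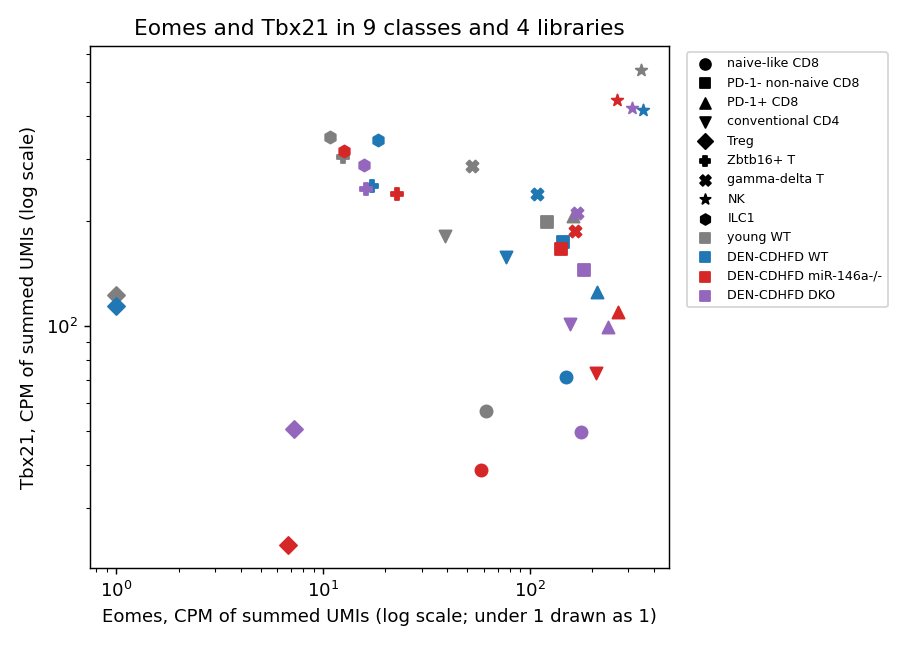
Eomes against Tbx21 level (CPM of summed UMIs) in each of the 9 lymphoid classes, 1 point per library. NK cells lie high on both axes, and ILC1 and Zbtb16+ T cells lie high for Tbx21 and low for Eomes.

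Because the T-box pair rose by such unequal steps between ILC1 and NK cells (4.61 and 0.58), the stretch upstream of each start is shown with its build, GRCm38.p6, and strand from RefSeq. Capitals mark the E-box letters CAGNTG, the sequence bound by the E proteins that ID2 and ID3 hold off.
Eomes chr9:118477939-118478188 (plus): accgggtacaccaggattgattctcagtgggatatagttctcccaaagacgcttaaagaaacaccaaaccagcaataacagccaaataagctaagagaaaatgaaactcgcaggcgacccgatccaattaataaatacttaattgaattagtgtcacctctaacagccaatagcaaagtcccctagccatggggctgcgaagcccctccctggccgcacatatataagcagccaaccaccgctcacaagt
Tbx21 chr11:97115332-97115581 (minus): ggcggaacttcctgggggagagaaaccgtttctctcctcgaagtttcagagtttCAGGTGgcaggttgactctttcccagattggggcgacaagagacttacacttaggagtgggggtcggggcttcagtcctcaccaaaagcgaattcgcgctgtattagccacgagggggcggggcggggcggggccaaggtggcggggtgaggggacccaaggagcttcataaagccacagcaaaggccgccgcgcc
The Tbx21 window held 1 E-box, starting 196 bases before the start, and the Eomes window none. Over both strands, 6 of 17 windows of the 9 members with an entry held an E-box (Tox has none), against 44.8% of all 32851 windows of 250 bases. Of the members' windows, 5 are of Tox2 and 4 of Lef1, and several overlap one another or the annotated gene. The TCF/LEF letters CTTTGAA or CTTTGAT were in 2 windows, both of Tox2, shifted by 1 base and sharing 1 match, against 7.48% of all, and the T-box letters GGTGTGA in 0, against 3.33%. No match says only that these letters are not in this window.

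Treg cells, read against conventional CD4 cells, had 4 of 10 members called, all lower, beside 8.94% of all genes, with a members' median of -0.28 and -0.07 for all genes. Eomes was at 0, 0, 6.76 and 7.23 CPM in Treg cells, 4 UMIs in all, and at 38.8, 77.3, 209 and 158 CPM in conventional CD4 cells (-4.75, adjusted p = 0.000103, higher in 0 of 4 libraries). With gates on thinned cells the value was -4.13, and in cells free of myeloid and B-cell marker UMIs no UMI of Eomes was left in Treg cells. Every library was low in Treg cells. Tbx21 stood at 123, 114, 23.6 and 50.6 CPM in Treg cells and 181, 158, 73.2 and 101 CPM in conventional CD4 cells (-1.07, adjusted p = 0.0087, 0 of 4), and the call was lost without DKO (-1.03, adjusted p = 0.110). Without sums of fewer than 50 cells, chosen after seeing the data, it was -1.71. Tcf7 (-1.48, adjusted p = 0.0320) lost its call without DEN-CDHFD WT (-1.45, 0.0583), miR-146a-/- (-1.41, 0.134) or DKO (-1.59, 0.147), and Id2 (-0.69, adjusted p = 0.0197) without miR-146a-/- (-0.62, 0.180) or DKO (-0.78, 0.0785). Both were lower in Treg cells of 4 of 4 libraries. In cells free of marker UMIs the calls of Tbx21 (-0.93, 0.222), Tcf7 (-1.87, 0.199) and Id2 (-0.65, 0.224) were lost. Those of Tcf7 and Id2 were also lost at a ribosomal share of 10% or more (-1.44 with 0.0501, and -0.64 with 0.0540) and without sums of fewer than 50 cells (-1.64 with 0.136, and -0.67 with 0.101). The count of members called ran from 1 to 4 over the left-out libraries, and that of all genes from 302 to 954 (992 with all libraries). The Treg sums rest on as few as 16 cells. Tox, Tox2, Lef1, Bach2, Id3 and Prdm1 did not pass, with log2 fold changes from -0.35 to 0.90.

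Zbtb16+ T cells, the innate-like T cells, differed from conventional CD4 cells in 7 of 10 members, 3 higher and 4 lower, beside 16.8% of all genes, with a members' median of -0.73 and near 0 for all genes. Eomes stood at 12.5, 17.3, 22.9 and 16.2 CPM in Zbtb16+ T cells, below every conventional CD4 library (-2.73, adjusted p = 3.0e-07, higher in 0 of 4). Tox2 was at 0.963, 2.88, 6.54 and 2.32 CPM against 19.4, 25.5, 47.3 and 36.3 CPM (-3.63, adjusted p = 7.4e-08, 0 of 4), or -2.93 with gates on thinned cells and -3.03 in cells free of marker UMIs. Tbx21, at 305, 252, 239 and 247 CPM, rose by 1.04 (adjusted p = 8.2e-06, 4 of 4), and Bach2, at 125, 186, 117 and 141 CPM, by 1.03 (adjusted p = 0.00022, 4 of 4). For these 4 genes, and for Id2 and Prdm1 below, the libraries did not overlap between the classes, while those of Tox did. The share of all genes without overlap was not counted. Id2 rose by 0.68 (adjusted p = 0.0030, 4 of 4), Tox fell by 0.74 (adjusted p = 0.0017, 0 of 4) and Prdm1 fell by 1.56 (adjusted p = 0.0052, 0 of 4). Without miR-146a-/- the calls of Tox (-0.54, 0.0726) and Prdm1 (-1.10, 0.129) were lost, and without DKO those of Prdm1 (-1.42, 0.0571) and Id2 (0.58, 0.0639). The call of Id2 was also lost with gates on thinned cells (0.48, 0.0664), and those of Id2 (0.52, 0.0779) and Tox (-0.56, 0.0688) in cells free of marker UMIs. Tcf7 did not pass (-0.73, adjusted p = 0.0798, 0 of 4), nor did Lef1 (0.01, 0.993) and Id3 (-0.73, 0.369). With no filter beyond 1 UMI, Tcf7 (-0.75, 8.6e-09) and Id3 (-0.74, 0.0103) passed. Between 5 and 7 members were called with a library left out.

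Of 29 related factors, a list of E proteins, family members and partners, 28 were tested. In PD-1+ against naive-like CD8 cells 9 rose and 9 fell, from Bhlhe40 at 3.92 (adjusted p = 3.7e-13) to the chromatin organiser Satb1 at -4.43 (adjusted p = 7.9e-13). In PD-1+ against PD-1- cells 7 rose and 12 fell, from Maf at 2.21 (adjusted p = 2.1e-05) to Satb1 at -2.90 (adjusted p = 4.9e-09). NK cells against ILC1 gave 10 higher and 10 lower, from Myb at 4.98 (adjusted p = 3.9e-07) to Zfp683, which encodes the tissue-residency factor HOBIT, at -5.13 (adjusted p = 4.4e-11). For Treg cells 6 were higher, led by Ikzf2 (HELIOS) at 2.60 (adjusted p = 7.9e-08), and 3 lower, with the lowest value, Tcf7l2 at -1.62, not past the test (adjusted p = 0.636). For Zbtb16+ T cells 5 were higher, led by Satb1 at 1.91, and 2 lower, led by Batf at -1.19. The shares of all genes called in these 5 comparisons were 30.3%, 20.2%, 31.3%, 8.94% and 16.8%. Satb1 moved with Tcf7, Lef1 and Bach2 in both CD8 comparisons.

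Between conditions there is 1 library each, so no replicate check or test was possible, and a gene was counted where its CPM ratio within a class passed 1.5-fold among genes with at least 20 UMIs in a library. Intervals below are counting error only. The question of age and treatment is asked by DEN-CDHFD WT against young WT. In PD-1+ CD8 cells 8 of 10 members passed 1.5-fold, beside 21.8% of all genes. Higher were 3 and lower 5, with a members' median log2 ratio of -0.16 and -0.02 for all genes. Tcf7 stood at 153 CPM in young WT and at 37.6, 45.5 and 54.4 CPM in the treated libraries, with a log2 ratio of DEN-CDHFD WT to young WT of -2.02 (-2.23 to -1.81). Lef1, at 82.8 and then 25.7, 30.5 and 37.3 CPM, gave -1.69 (-1.96 to -1.42), and Bach2, at 82.8 and then 43.7, 42.1 and 40.8 CPM, gave -0.92 (-1.17 to -0.67). Young WT was the high library for all 3, and the treated libraries lay close together. Without the limit on marker UMIs, Bach2 gave -0.46, under 1.5-fold.

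Id3, at 63.7 CPM in young WT and 11.6, 16.0 and 24.5 CPM after treatment, had the lowest ratio, -2.45 (-2.81 to -2.10). Gates on thinned cells gave -1.84, and without the limit on myeloid and B-cell marker UMIs the direction turned, to 0.56. Tbx21, at 206 and then 125, 109.6 and 99.1 CPM, gave -0.72 (-0.87 to -0.57). Id3 and Tbx21 were thus also highest in young WT. On the other side, Tox2 rested at 23.0 CPM in young WT and between 52.1 and 56.7 CPM after treatment, a log2 ratio of 1.22 (0.81 to 1.62). Prdm1, at 37.7, 114, 63.9 and 63.9 CPM, gave 1.59 (1.28 to 1.90), and Id2, at 531, 1312, 689 and 573 CPM, gave 1.31 (1.22 to 1.39). For both, DEN-CDHFD WT was the highest library and young WT the lowest. Tox (0.44) and Eomes (0.39) were below 1.5-fold.

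Several measures moved with these values in PD-1+ CD8 cells. The share of cycling cells was 24.4%, 42.5%, 25.1% and 28.9%, the median ribosomal share of UMIs 18.04%, 15.2%, 17.1% and 20.4%, and the stress genes Fos 393, 181, 25.1 and 47.6 CPM, Jun 604, 197, 124 and 172 CPM and Hspa1a 363, 116, 85.8 and 117 CPM. The 4 naive markers summed to 273, 88.7, 97.8 and 132 CPM, and the 5 PD-1+ CD8 markers to 1632, 4071, 2983 and 2813 CPM, with Gzmk the most abundant. NK markers stood at 1232, 2336, 3563 and 1736 CPM, led by Gzma, and Treg markers at 226, 840, 262 and 303 CPM, led by Ctla4 at 111, 604, 137 and 194 CPM with Foxp3 at 0. Macrophage genes stood at 15.2, 41.5, 29.2 and 39.5 CPM, with C1qc, Adgre1 and Csf1r at 0 in young WT, B-cell genes at 46.0, 22.7, 25.6 and 26.6 CPM, and haemoglobin at 0, 3.15, 304 and 357 CPM. Their part in the members' ratios was not tested.

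PD-1- non-naive CD8 cells gave 0 of 10 members past 1.5-fold in DEN-CDHFD WT against young WT, beside 8.67% of all genes, with members' ratios from -0.29 (Id3) to 0.56 (Tox2). With gates on thinned cells the count was 6. Tox stood at 223, 266, 331 and 373 CPM there, and Tcf7 at 262, 231, 179 and 174 CPM. Over the libraries in this order Tox rose and Tcf7 fell by small steps. The last step of Tcf7, DKO against miR-146a-/-, lay within counting error (log2 ratio -0.04, -0.18 to 0.09). The T-cell list was even over these libraries, at 4811, 4869, 5345 and 5601 CPM, as were the naive markers, at 661, 584, 616 and 553 CPM. Macrophage genes, at 14.9, 22.8, 21.6 and 29.8 CPM, and B-cell genes, at 55.2, 41.4, 35.2 and 44.2 CPM, were low. Stress genes were not even: Fos stood at 556, 494, 92.1 and 103 CPM, Jun at 806, 711, 212 and 257 CPM and Hspa1a at 364, 304, 109 and 117 CPM. They were lower in both knockout libraries, and their part in the grades of Tox and Tcf7 was not tested.

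Conventional CD4 cells had 6 of 10 members past 1.5-fold in the same comparison, 3 higher and 3 lower, beside 14.0% of all genes. The members' median log2 ratio was 0.05 and that of all genes 0.00. Eomes stood at 38.8 CPM in young WT and 77.3 CPM in DEN-CDHFD WT (0.99, 0.62 to 1.37), and at 0.51, under 1.5-fold, in cells free of marker UMIs. Tox, at 228 and 372 CPM, gave 0.70 (0.54 to 0.87) but passed in only 7 of 12 alternatives, with values down to 0.37. Prdm1, with 61 and 43 UMIs, gave 0.66 (0.10 to 1.22). Tcf7 (-0.63), Lef1 (-0.63) and Bach2 (-0.61) were lower, and each was under 1.5-fold in some alternatives, with values of -0.43, -0.15 and -0.30 nearest to 0. Most of these 6 calls thus lay close to the threshold. Between these 2 libraries cycling cells went from 20.4% to 39.0%, naive markers from 689 to 439 CPM, PD-1+ CD8 markers from 795 to 1158 CPM, haemoglobin genes from 779 to 0.729 CPM and macrophage genes from 10.98 to 24.8 CPM. Their part in the ratios was not tested.

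NK cells gave 3 of 9 tested members, Tox2 having too few UMIs, beside 11.6% of all genes, with a members' median of 0.04 and -0.02 for all genes. Tcf7 stood at 77.4 CPM in young WT and 151 CPM in DEN-CDHFD WT, then 131 and 94.4 CPM (0.97, 0.76 to 1.17). Young WT was the low library, the reverse of its place in PD-1+ CD8 cells, and this difference was not tested. Id3, with 13 and 39 UMIs, gave 2.09 (1.20 to 2.99), 0.92 in cells free of marker UMIs, 1.43 as a mean over cells, 0.58 without the marker limit, 0.19 without cycling cells and -1.24 with gates on thinned cells. Prdm1, at 54.4 and 35.2 CPM, gave -0.62 (-0.95 to -0.30), and -0.45 in cells with a ribosomal share of 10% or more and -0.55 without the marker limit. Cycling NK cells made up 11.4%, 22.9%, 18.1% and 20.5%, Fos stood at 1360.2, 1131, 157 and 259 CPM, and the NK list at 18767, 13148, 15791 and 16782 CPM. The ILC1 list in NK cells stood at 61.8, 70.5, 81.7 and 70.5 CPM and macrophage genes at 7.45, 12.0, 12.5 and 8.58 CPM, and their part was not tested.

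**Figure D5:**
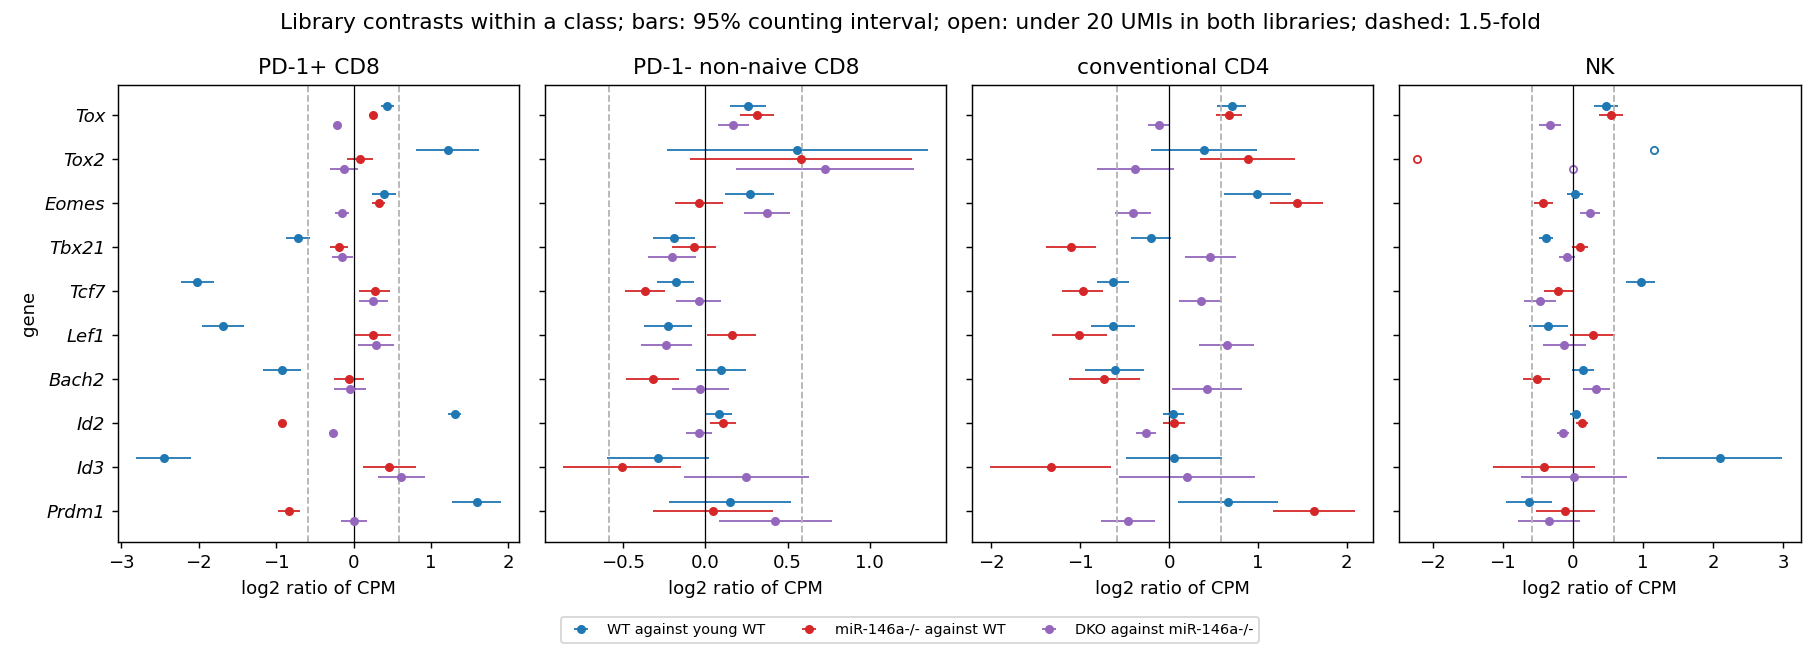
Log2 ratio of each member between libraries in 4 classes, with 95% counting intervals, for DEN-CDHFD WT against young WT, miR-146a-/- against WT and DKO against miR-146a-/-. PD-1+ CD8 cells in the first comparison and conventional CD4 cells in the second hold the most members past 1.5-fold, 8 and 9.

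The question of miR-146a loss is asked by the miR-146a-/- against the WT library, both DEN-CDHFD and 1 library each. Of the 4 classes counted, conventional CD4 cells had the most members past 1.5-fold, 9 of 10, beside 16.1% of all genes. Higher were 4 and lower 5, with a members' median of -0.34 and -0.02 for all genes. Eomes stood at 209 CPM in miR-146a-/- against 77.3 CPM in WT (1.43, 1.13 to 1.73), and at 158 CPM in DKO. Prdm1, at 97.6 against 31.4 CPM, gave 1.63 (1.17 to 2.09), and stood at 70.9 CPM in DKO. Both knockout libraries lay above both WT libraries for these genes, with separate counting intervals. Tox, at 593 against 372 CPM, gave 0.67 (0.53 to 0.82), and 0.58, just under 1.5-fold, with a mitochondrial limit of 10% or without the marker limit. Tox2, at 47.3 against 25.5 CPM, gave 0.88 (0.34 to 1.42), and 0.50 with gates on thinned cells and 0.14 without the marker limit.

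Tcf7 in these cells stood at 347, 224, 114 and 145.7 CPM, a log2 ratio of miR-146a-/- to WT of -0.97 (-1.20 to -0.74). Lef1, at 193, 125, 61.7 and 96.7 CPM, gave -1.01 (-1.32 to -0.70), and Bach2, at 104, 67.8, 40.8 and 55.0 CPM, gave -0.73 (-1.13 to -0.33). Young WT was the highest and miR-146a-/- the lowest library for all 3 genes, with DEN-CDHFD WT and DKO between. Tbx21, at 181, 158, 73.2 and 101 CPM, gave -1.10 (-1.38 to -0.82), and -0.58 without the marker limit. Id3, with 30 and 40 UMIs, gave -1.33 (-2.01 to -0.65), -0.73 with gates on thinned cells and -2.33 without the marker limit. Id2 differed little (0.05). Conventional CD4 cells of both knockouts were thus higher in Eomes, Tox and Prdm1 and lower in Tcf7, Lef1 and Tbx21 than those of both WT libraries.

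By thinned shares, 3.94%, 11.4%, 29.2% and 26.4% of conventional CD4 cells held Eomes (8.30%, 18.6%, 50.4% and 40.2% unthinned, median depth 6095, 6476, 6215 and 6274 UMIs), against the B-cell shares under 1% given above. The PD-1+ CD8 marker list in conventional CD4 cells summed to 795, 1158, 2597 and 2050.4 CPM, led in both knockouts by Gzmk, at 1049.6 and 826 CPM. Their naive markers summed to 689, 439, 270 and 358 CPM, the T-cell list to 5274, 5552, 6898 and 6402 CPM and the CD4 list to 599.6, 582, 546 and 561 CPM. Cycling cells made up 20.4%, 39.0%, 32.7% and 34.3%, and Fos stood at 562, 527, 85.4 and 115 CPM, Jun at 669, 449.9, 131 and 155 CPM and Hspa1a at 548, 404, 163 and 92.3 CPM. Macrophage genes, at 10.98, 24.8, 38.1 and 29.1 CPM, and B-cell genes, at 56.9, 34.3, 16.4 and 25.8 CPM, were low beside the T-cell list, and the macrophage genes had the same order of libraries as Eomes. Haemoglobin genes stood at 779, 0.729, 1759 and 1.65 CPM and neutrophil genes at 1.29, 1.46, 170.4 and 9.34 CPM, both highest in miR-146a-/-. The stress genes split the libraries by miR-146a genotype as Eomes and Prdm1 did. The part of all these genes in the members' ratios was not tested.

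In PD-1+ CD8 cells the same comparison gave 2 of 10 members, both lower, beside 15.3% of all genes, a share near the background. Id2, at 689 against 1312 CPM, gave -0.93 (-0.97 to -0.89), and Prdm1, at 63.9 against 114 CPM, gave -0.83 (-0.97 to -0.69). Both passed 1.5-fold in 12 of 12 alternatives. The members' median was 0.16 and that of all genes 0.01. PD-1- non-naive CD8 cells gave 0 of 10 (background 9.27%), with Tox2, at 0.58, just under the threshold, and NK cells 0 of 9 (background 12.2%), with ratios from -0.51 (Bach2) to 0.55 (Tox). The opposite directions of Prdm1 in PD-1+ CD8 and conventional CD4 cells were not tested.

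Between the DKO and miR-146a-/- libraries, which differ in Ccl5, few members passed 1.5-fold. In PD-1+ CD8 cells 1 of 10 passed 1.5-fold, beside 9.8% of all genes, Id3 at 24.5 against 16.0 CPM (0.61, 0.31 to 0.92). The other 9 lay between -0.26 (Id2) and 0.29 (Lef1). In PD-1- non-naive CD8 cells 1 of 10 passed (background 6.64%), Tox2 with 63 and 48 UMIs at 0.73 (0.19 to 1.27), which was 0.39 without the marker limit and -0.06 with gates on thinned cells. Conventional CD4 cells gave 1 of 10 (background 10.9%), Lef1 at 0.65 (0.34 to 0.95), or 0.31 with gates on thinned cells and 0.41 without the marker limit, and NK cells 0 of 9 (background 7.39%). The counts were higher in some alternatives, with 3 in PD-1+ CD8 cells with gates on thinned cells and 3 in conventional CD4 cells both with no marker UMI and with no cycling cells.

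Of the related factors, 25 to 27 had enough UMIs in these comparisons. For DEN-CDHFD WT against young WT in PD-1+ CD8 cells 5 were higher and 9 lower, from Maf at 2.28 to Zfp683 at -3.11, beside 10.3% of all genes higher and 11.4% lower. PD-1- non-naive CD8 cells gave 2 and 1 (Myb 0.96, Zfp683 -0.70), conventional CD4 cells 3 and 2 (Batf 0.93, Satb1 -0.91) and NK cells 2 and 2 (Myb 1.17, Zeb2 -0.72). Beside these, 3.65% and 5.02%, 5.80% and 8.15%, and 6.11% and 5.47% of all genes were higher and lower. For miR-146a-/- against WT there were 1 higher and 7 lower in PD-1+ CD8 (Rora 0.64, Nr4a3 -1.82), 0 and 7 in PD-1- non-naive CD8 (Zeb2 0.32, Myb -1.85), 4 and 11 in conventional CD4 (Maf 1.25, Nr4a1 -1.81) and 0 and 8 in NK cells (Maf 0.37, Nr4a1 -2.54). Among all genes in these classes the shares higher and lower were 7.21% and 8.05%, 4.10% and 5.17%, 7.80% and 8.32%, and 5.40% and 6.82%. The uneven split of the related factors was not tested against these. For DKO against miR-146a-/- the counts were 1 and 2 (Klf2 0.76, Nr4a2 -0.97), 3 and 0 (Tcf7l2 2.51, Zfp683 -0.57), 3 and 1 (Bach1 1.05, Nr4a2 -0.69) and 1 and 1 (Myb 1.10, Rora -0.61) in the same classes. Of all genes, 4.83% and 4.96%, 3.36% and 3.29%, 5.67% and 5.19%, and 4.13% and 3.26% were higher and lower there. An NR4A gene, from a family of immediate-early factors upstream of Tox, was the lowest related factor in 3 of the 4 miR-146a comparisons. It was Nr4a3 in PD-1+ CD8 cells and Nr4a1 in conventional CD4 and NK cells, beside the low Fos of both knockouts.

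Over all 9 classes, where tested, log2 ratios of DEN-CDHFD WT to young WT ran from -1.69 to -0.23 for Lef1, from -0.72 to 0.32 for Tbx21, from 0.04 to 1.29 for Eomes, from -0.84 to 0.70 for Tox and from -2.02 to 0.97 for Tcf7. In miR-146a-/- against WT they ran from -0.21 to 0.67 for Tox, from -1.32 to 0.27 for Tcf7 and from -1.10 to 0.10 for Tbx21. These comparisons share libraries across classes, values near 0 can lie within counting error, and how often other genes keep 1 sign over the classes was not tested.

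Over the 36 class and library sums the members also varied together, as Pearson correlations of log2 levels over points that share libraries. Tcf7 and Lef1 had 0.80, Tox2 and Prdm1 0.79, and Tbx21 and Id2 0.71. Bach2 ran against Tox2 (-0.88), Prdm1 (-0.84) and Tox (-0.81), and Tox against Tcf7 (-0.76). Tox and Tox2 had 0.62, and Id2 and Id3 -0.29. Lef1 ran against Id2 (-0.76) and Tox (-0.76), but had only -0.16 with Tox2 and -0.41 with Prdm1, and Tcf7 had -0.46 with Tox2 and -0.68 with Prdm1. Bach2 had 0.68 with Tcf7 and 0.49 with Lef1. Of Tcf7, Lef1 and Bach2, then, all ran against Tox, and they differed in how far they ran against Tox2 and Prdm1.

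Among 5731 other genes, genes whose pattern over the same 36 sums was among the most like each member were named by Pearson's r. For Tox they were H2-T23 (0.920), Lag3 (0.909) and S100a4 (0.889), and for Tox2 Syt11 (0.934), Sdcbp2 (0.900) and Rgs16 (0.890). Eomes was nearest to Lpin1 (0.902), Wdr95 (0.895) and Ms4a4b (0.819), and Tbx21 to Il12rb2 (0.914), Adgre5 (0.912) and Arl4d (0.894). Tcf7 had Nsg2 (0.855), Sidt1 (0.828) and Treml2 (0.806), Lef1 had Cmah (0.899), Sh3bp5 (0.887) and A930005H10Rik (0.864), and Bach2 had Satb1 (0.883), Foxp1 (0.857) and Dnajc15 (0.851). Id2 was nearest to Hsp90b1 (0.891), Fgl2 (0.885) and Stk39 (0.884), and Prdm1 to Alcam (0.875) and Rgs16 (0.833). Id3, whose neighbouring classes all overlapped, reached only 0.704 with Gpr15 and 0.656 with Cct3.

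The members lie on 7 chromosomes of GRCm38, each as a protein-coding gene. Tox (ENSMUSG00000041272, chr4:6686353-6991557), Bach2 (ENSMUSG00000040270, chr4:32238804-32586108) and Id3 (ENSMUSG00000007872, chr4:136143497-136145755) share chromosome 4, and Tbx21 (ENSMUSG00000001444, chr11:97098071-97115331) and Tcf7 (ENSMUSG00000000782, chr11:52252371-52283014) chromosome 11, where Mir146 also lies. Tox2 (ENSMUSG00000074607) is at chr2:163203125-163324170, Lef1 (ENSMUSG00000027985) at chr3:131110471-131224356, Eomes (ENSMUSG00000032446) at chr9:118478212-118486132, Prdm1 (ENSMUSG00000038151) at chr10:44437177-44528501 and Id2 (ENSMUSG00000020644) at chr12:25093799-25097140. The pairs of relatives Tox and Tox2, Eomes and Tbx21, Tcf7 and Lef1, and Id2 and Id3 are each on separate chromosomes. Over kept cells they ranged from 4377 UMIs for Tox2 to 185711 for Id2.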

How the data were processed

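Per the labels and the file headers, the authors aligned reads with Cell Ranger (7.0.1 in the submitters' processing notes and file headers, 5.0.0 in the paper) to mm10. The values the authors deposited are raw UMI counts, 1 for each gene in each cell. Intron counting is not stated. A cell was used if it had 600 to 6000 features and no more than 5% of its UMIs from mitochondrial genes, and was gated on marker UMIs. No doublet caller was run. Beyond the upper limit on features, T cells over the limit on myeloid and B-cell marker UMIs were left out, and doublets of 2 lymphoid cells may remain. UMIs were summed per class and library and given as CPM with exact 95% Poisson intervals. Shares, in cells thinned to 2000 UMIs, have exact Clopper-Pearson intervals. Ratios used a prior of 0.5 counts. Class contrasts used edgeR 4.0.16 (TMM, filterByExpr, 36 sums in 1 fit, 24 residual degrees of freedom) with DESeq2 1.42.0 as an alternative, in R 4.3.3, and the rest Python 3.11.15, numpy 2.4.6, scipy 1.17.1, pandas 2.3.3 and matplotlib 3.10.9. Pattern likeness is Pearson's r of log2(CPM + 10) among genes at 50 CPM or more in at least 1 sum, leaving out gating genes, members, and mitochondrial, ribosomal protein and antigen receptor segment genes, and 2 or 3 of the 3 highest per member are named. All members are named. The related list is given by counts and its highest and lowest value. Seed matches used GENCODE M21 3′ UTRs. The members and lists were chosen with earlier results of these data known. Gates, thinning, scaling, filters, thresholds and left-out libraries were varied.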

Additional observations from a re-analysis of the deposited data

Results flagged for a closer look

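Among PD-1+ CD8, PD-1- non-naive CD8, conventional CD4 and NK cells, ratios of 3 members between libraries passed 1.5-fold in opposite directions in different classes. With the other 5 classes included more members did so, such as Eomes for miR-146a-/- against WT (1.43 in conventional CD4 and -1.35 in naive-like CD8 cells), and Bach2 (-0.92 in PD-1+ CD8 cells and 0.64 in ILC1) and Tox (0.70 in conventional CD4 and -0.84 in naive-like CD8 cells) for DEN-CDHFD WT against young WT. In each case the difference was not tested, and no share of all genes was set beside these counts. The naive-like CD8 sums in these examples held 151, 53 and 13 cells in young WT, DEN-CDHFD WT and miR-146a-/-. Tcf7, in DEN-CDHFD WT against young WT, had a log2 ratio of -2.02 in PD-1+ CD8 and -0.63 in conventional CD4 cells and of 0.97 in NK cells. Id3 in the same comparison had -2.45 in PD-1+ CD8 and 2.09 in NK cells, but gave 0.56 in PD-1+ CD8 cells without the marker limit and, in NK cells with 13 and 39 UMIs, -1.24 with gates on thinned cells and 0.19 without cycling cells. Prdm1 had 1.59 in PD-1+ CD8, 0.66 in conventional CD4 and -0.62 in NK cells in that comparison, and for miR-146a-/- against WT, both DEN-CDHFD, it had -0.83 in PD-1+ CD8 and 1.63 in conventional CD4 cells.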

How the results depend on the processing

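Of the members' log2 ratios between libraries, 1302 values under the alternatives stayed within the counting interval, 135 moved beyond it and 3 turned: Id3 in PD-1+ CD8 cells, DEN-CDHFD WT against young WT (0.56 without the limit on marker UMIs, from -2.45), Tox2 in PD-1- non-naive CD8 cells, DKO against miR-146a-/- (-0.058 with gates on thinned cells, from 0.73), and Id3 in NK cells, DEN-CDHFD WT against young WT (-1.24 with gates on thinned cells, from 2.09). The cause was not tested. Of class fold changes 543 kept their side of the threshold, 50 no longer passed and 7 newly passed. None that passed turned in direction, but a turn was not counted where neither value passed. Of levels 3292 stayed within their interval and 668 moved, and of shares 196 and 524.

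Counts of members past the fold that moved by more than 1.5 times are listed, with the first value in parentheses. Smaller moves are not, such as 6 to 9 (8) in PD-1+ CD8 cells for DEN-CDHFD WT against young WT, up to 3 (2) there for miR-146a-/- against WT, up to 4 (3) in NK cells for DEN-CDHFD WT against young WT, and up to 9 (7) called in Zbtb16+ T cells. At 2-fold, PD-1+ CD8 cells gave 0 (2) for miR-146a-/- against WT and 0 (1) for DKO against miR-146a-/-, PD-1- non-naive CD8 0 (1) for the latter, conventional CD4 cells 0 (6), 5 (9) and 0 (1) over the 3 comparisons and NK cells 1 (3) for DEN-CDHFD WT against young WT. Gates on thinned cells gave, for DKO against miR-146a-/-, 3 (1) in PD-1+ CD8, 0 (1) in PD-1- non-naive CD8 and 0 (1) in conventional CD4 cells, for DEN-CDHFD WT against young WT 6 (0) in PD-1- non-naive CD8, and for miR-146a-/- against WT 1 (0) in NK cells. PD-1- non-naive CD8 cells gave, for DEN-CDHFD WT against young WT, 1 (0) with 3 Cd3 UMIs and 2 (0) without the marker limit, for DKO against miR-146a-/- 0 (1) without that limit, and for miR-146a-/- against WT 1 (0) with 1 or 3 Cd3 UMIs, no marker UMI, no marker limit, a ribosomal share of 10% or more, no cycling cells, TMM factors or the mean over cells. Conventional CD4 cells gave 3 (6) for DEN-CDHFD WT against young WT and 3 (1) for DKO against miR-146a-/- both with no marker UMI and with no cycling cells, and 2 (1) for the latter by the mean over cells. NK cells gave 1 (0) for miR-146a-/- against WT with no marker UMI or no cycling cells, and 1 (0) for DKO against miR-146a-/- with no cycling cells. Of the counts of members called between classes, NK against ILC1 gave 4 (7) with no library block, and Treg against conventional CD4 cells, from 4, gave 1 to 4 on leaving out a library (2 without miR-146a-/-, 1 without DKO), 2 at a ribosomal share of 10% or more, 1 with no marker UMI and 2 without sums of fewer than 50 cells, chosen after seeing the data. Fewer cells per sum enter several of these settings. Protein identity of related members was not run, since no protein sequences were at hand. Depth limits several members, with 0 to 2 UMIs of Tox2 and 13 to 39 of Id3 in NK sums and 1 of Prdm1 in each naive-like CD8 sum.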
